A study of Mus musculus with 3 samples.

Results

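Foxp3-positive T cells (Tregs) were described among CD45+ immune cells sorted from orthotopic 4T1 tumors of BALB/c mice, a mouse model of metastatic triple-negative breast cancer. Members were T cells with at least 1 Foxp3 transcript and no Cd8a or Cd8b1 transcript. A T cell was a cell with transcripts of at least 2 of the 4 genes Cd3d, Cd3e, Cd3g and Trac, with fewer than 2 of the 4 cycling genes Mki67, Top2a, Birc5 and Cdk1, and with no Trdc. The rule kept 257 members out of 1723 T cells, 12472 cells that passed the cell filter and 16143 deposited barcodes. The members were therefore chosen by Foxp3, Cd8a, Cd8b1, Trdc, the T cell genes and the cycling genes, and the levels of these genes are given only as a description.

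The study had 3 single-cell RNA-seq libraries, 1 per group, each made from the pooled tumors of 3 mice. In the vehicle (Veh) and p38i groups, 200000 4T1-luc cells wild type for p38α, the kinase encoded by Mapk14, were implanted into the 4th mammary fat pad of female BALB/c mice aged 6 to 8 weeks. Mice of the Veh group received DPBS, and those of the p38i group received the p38 inhibitor LY2228820 at 30 mg/kg by daily gavage for 10 days from day 4. In the p38KO group the implanted cells carried p38α inactivated by CRISPR-Cas9 (clone H9) and no treatment was listed, so the host immune cells were genetically unmodified in all 3 groups. Tumors of all groups were harvested on day 14, and live cells negative for 7AAD and positive for CD45 were sorted. The knockout was 1 clone and mice were pooled, so neither the spread between mice nor that between clones can be read from the libraries.

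Tregs are CD4 T cells that restrain other immune cells. Foxp3 is their defining transcription factor. The high-affinity interleukin-2 receptor chain CD25 (Il2ra), the inhibitory receptor CTLA-4, which takes CD80 and CD86 away from antigen-presenting cells, and the transcription factor Helios (Ikzf2) are their classical markers. In tumors, Tregs often carry an activated profile, with high levels of co-stimulatory receptors of the TNF receptor family.

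The Veh library held 61 members, the p38i library 107 and the p38KO library 89. Their summed UMIs (unique molecular identifiers, 1 per captured transcript) were 306646, 397598 and 461217, and the median per cell was 3873, 3040 and 4189. Of the 257 members, 70 had 1 Foxp3 UMI, 66 had 2 and 121 had 3 or more. Among all 319 cells past the filter with a Foxp3 UMI, 27 were left out for a Cd8 transcript, 24 as cycling, 3 for Trdc and 8 for fewer than 2 T cell genes. A Foxp3 UMI was found in 0.0758%, 0.0306% and 0.128% of granulocytes of the Veh, p38i and p38KO libraries (median depths of 2629, 2501 and 2414 UMIs), the background in cells that should lack the gene. It was found in 2.30%, 5.26% and 4.60% of CD8 T cells (5924, 5079 and 5463 UMIs) and in 12.9%, 18.4% and 17.6% of all T cells (5060, 3882 and 4730 UMIs). Cd4 itself was sparse, with a UMI in 108 of the 257 members (42.0%). No member barcode was shared between libraries.

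The members carried the markers of the label. Ikzf2 was found in 86.9%, 93.5% and 96.6% of members of the Veh, p38i and p38KO libraries, Il2ra in 68.9%, 71.0% and 70.8%, and Ctla4 in 91.8%, 72.0% and 67.4%. None of these 3 genes was found in 1 of 61, 0 of 107 and 1 of 89 members. The same held for 46.0%, 62.6% and 52.9% of Foxp3-negative CD4 T cells (median depths of 4378, 3567 and 4786 UMIs) and for 96.1%, 96.7% and 95.1% of granulocytes, so the 3 genes were common in the other CD4 T cells too. Transcripts of other lineages were present. Of the B cell markers, Cd79a and Ms4a1 were at 0 in the members of each library, whereas Cd79b had 4 UMIs in each and Ighm was at 170, 136 and 212 CPM. The 6 NK cell markers summed to 81.5, 25.2 and 19.5 CPM, with Klrd1 at 10, 3 and 4 UMIs, Gzma at 10, 6 and 5 UMIs and Klrb1c at 0 in each library. Members with at least 2 of the 8 transcripts Lyz2, Csf1r, Cd68, Fcer1g, C1qa, Cd79a, Ms4a1 and Csf3r numbered 14 of 61 (23.0%), 10 of 107 (9.35%) and 18 of 89 (20.2%), and leaving them out kept 215 members. The 8 granulocyte markers, all of them detected, summed to 3832, 3541 and 3465 CPM (UMIs per 1000000 UMIs of the summed cells) in all members and to 385, 882 and 356 CPM without those cells. The 8 macrophage and monocyte markers, again all detected, summed to 541, 1381 and 6693 CPM in all members and to 107, 105 and 213 CPM without those cells. Csf3r of the granulocyte list and Lyz2, Csf1r, Cd68 and C1qa of the macrophage list were used to choose those cells. The falls in both sums follow in part from that choice. S100a9 was the most abundant granulocyte gene (1960, 1929 and 1869 CPM), and Apoe led the macrophage list in the p38KO library (3365 CPM). Whether these were doublets or free RNA was not tested.

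Members made up 35.1%, 42.1% and 34.1% of the CD4 compartment (Cd8-negative T cells with a Cd4 or Foxp3 transcript) in the Veh, p38i and p38KO libraries. Members counted with or without a Cd4 UMI, but Foxp3-negative cells only with one. CD4 T cells with neither transcript captured are thus missing, which raises the share. The 95% exact binomial intervals of 28.0 to 42.6%, 36.0 to 48.5% and 28.4 to 40.2% overlapped, so no difference was detectable at this depth. After each cell was thinned to 1500 UMIs and the rule applied again, the shares were 40.2%, 46.7% and 40.3%, with the p38i library again the highest, and without cells carrying transcripts of other lineages they were 31.8%, 43.1% and 34.6%. When members also had to have a Cd4 UMI the order turned, to 24.2%, 18.3% and 18.5%, with the p38i library the lowest. Of all T cells, members were 11.8%, 16.4% and 16.2%, with intervals of 9.11 to 14.8%, 13.6 to 19.5% and 13.2 to 19.5%. Of all cells past the filter they were 1.60%, 2.23% and 2.31%, where the denominator was mostly granulocytes. The Veh share was the lowest of the 3 by both of these measures, but its interval overlapped those of the p38i and p38KO libraries. Without cells carrying transcripts of other lineages the shares of T cells were 10.9%, 17.0% and 16.7%. The shares of all cells were then 1.27%, 2.07% and 1.92%, and the Veh interval (0.931 to 1.679%) lay just below that of p38i (1.682 to 2.519%). With a Cd4 UMI required, the p38i library was the lowest instead, at 5.05% of T cells against 6.94% in Veh and 7.08% in p38KO, and at 0.689% of all cells against 0.942% and 1.01%. These intervals cover counting error only, and with 1 library per group the spread between mice is not in them.

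**Figure D1:**
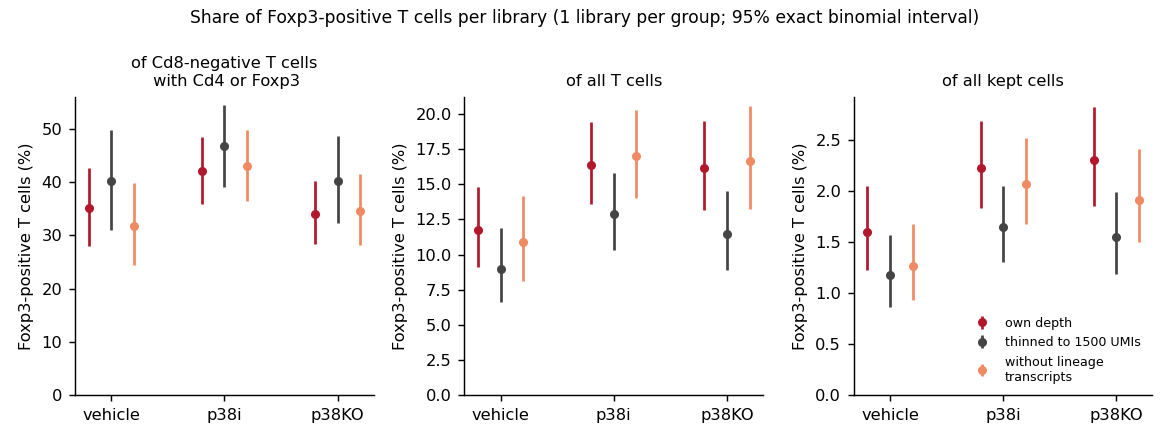
Share of Foxp3-positive T cells (%, y axis) in each library (x axis) with 3 denominators: Cd8-negative T cells with a Cd4 or Foxp3 transcript, all T cells and all cells past the filter. Points are shares at the cells' own depth, after thinning to 1500 UMIs and without cells that carried transcripts of other lineages, and bars are 95% exact binomial intervals; the intervals of the 3 libraries overlap in the first panel at each setting.

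To define what set Tregs apart from the other CD4 T cells of the same tumors, their summed counts were compared with those of the 432 Foxp3-negative CD4 T cells (113, 147 and 172 cells). These had a Cd4 UMI and no Foxp3 UMI, and may include Tregs whose Foxp3 transcripts were not captured. The members showed higher expression of Ikzf2, Il2ra, Ctla4, Klrg1, Itgae, Gzmb and co-stimulatory TNF receptors. They had lower expression of the helper cytokines and ligands Ccl1, Csf2, Il13, Cd40lg and Tnfsf8, of Cxcr6 and of Bcl2. Of 6001 genes tested, 241 were higher (4.02% of those tested) and 287 lower (4.78%; 8.80% in either direction) in members by edgeR's quasi-likelihood test with the library as a block (Benjamini-Hochberg adjusted p under 0.05). The 3 pairs came from 3 different tumor groups, so the test asks what is shared across them. Without the p38KO library, 99 genes were higher and 144 lower.

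Ikzf2 (chr1:69531214-69687245, GRCm38) was the most abundant of the classical markers after the genes of the rule were set aside. Its level was 2054 CPM in the Veh, 1949 in the p38i and 1871 in the p38KO members, against 206, 171 and 146 CPM in Foxp3-negative CD4 T cells. The groups did not overlap, and the log2 fold change was 3.37 ± 0.12 (SE, n = 3 libraries, edgeR adjusted p = 5.63e-16). Il2ra (chr2:11642807-11693193) was at 522, 770 and 557 CPM in members against 105, 59.3 and 123 CPM (log2 fold change 2.54 ± 0.34, edgeR adjusted p = 0.0173). Ctla4 (chr1:60887000-60915832) was at 985, 586 and 466 CPM against 358, 102 and 103 CPM (1.87 ± 0.18, edgeR adjusted p = 7.78e-06). For Ctla4, the gap within each library was clear but the Veh level of the other CD4 T cells came close to the p38KO level of the members, and without the library as a block the call was lost (edgeR adjusted p = 0.342). Foxp3 itself (chrX:7573644-7595245), which chose the members, was at 685, 727 and 607 CPM.

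The same markers were set against the number of Foxp3 UMIs in a cell, as a description. Members with 1 Foxp3 UMI, the cells just inside the rule, had Ikzf2 at 1749, 1714 and 2054 CPM in the Veh, p38i and p38KO libraries. Members with 3 or more had 2255, 2109 and 1805 CPM. The Foxp3-negative CD4 T cells just outside the rule had 206, 171 and 146 CPM. Il2ra showed the same step, from 105, 59.3 and 123 CPM with no Foxp3 UMI to 610, 775 and 557 CPM with 1. Both genes thus changed far more between no UMI and 1 UMI than among members. Gzmb did not follow 1 order: in the p38KO library it was at 470 CPM with 1 UMI and 1095 CPM with 3 or more, and in the Veh library at 1935 and 1284 CPM.

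**Figure D2:**
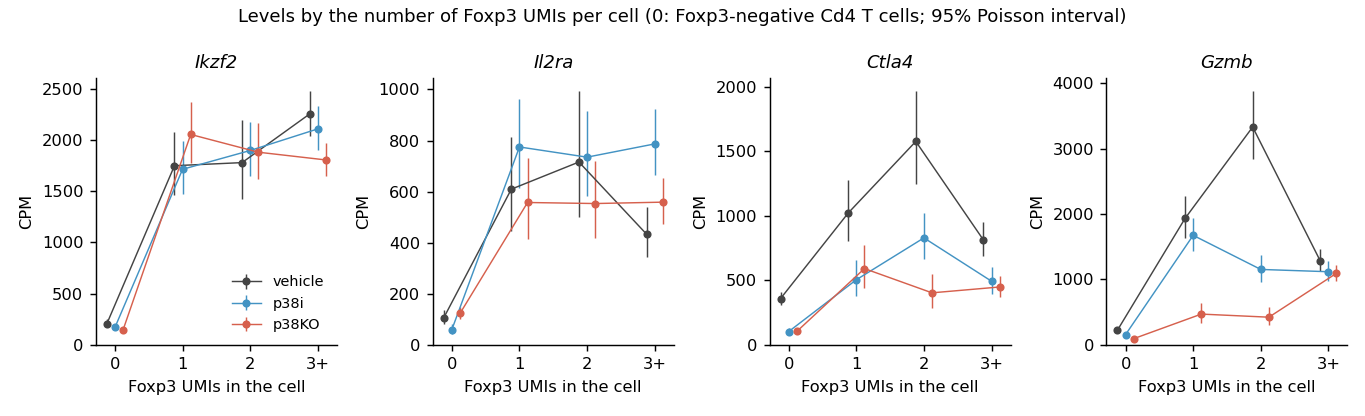
Levels of Ikzf2, Il2ra, Ctla4 and Gzmb (CPM, y axis) by the number of Foxp3 UMIs in the cell (x axis; 0 marks Foxp3-negative CD4 T cells), 1 line per library, bars are 95% Poisson intervals. Ikzf2 and Il2ra step up at the first UMI in each library, and Ctla4 is highest in the Veh library in every class.

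Surface receptors that mark Tregs formed the group with the most calls. Of 24 listed, 21 were tested, 15 were higher in members, 1 was lower and 5 did not pass, beside 4.02% of all genes higher and 4.78% lower. The median log2 fold change was 1.18 against 0.01 over all genes tested. Klrg1, an inhibitory receptor of terminally differentiated effector cells, was at 147, 90.5 and 119 CPM in members against 9.09, 4.45 and 4.30 CPM (log2 fold change 4.20 ± 0.32, edgeR adjusted p = 1.13e-09). Lrrc32 (GARP), which docks latent TGF-β on the Treg surface, was at 45.7, 25.2 and 30.4 CPM against 1.82, 1.48 and 1.08 CPM (4.21 ± 0.64), from few counts. Itgae, the CD103 chain that binds E-cadherin on epithelia, was at 153, 236 and 273 CPM against 5.46, 28.2 and 30.1 CPM (3.22 ± 0.25, edgeR adjusted p = 1.90e-09). Izumo1r, the folate receptor 4 long used as a Treg marker, was at 580, 435 and 449 CPM against 104, 86.0 and 89.2 CPM (2.24 ± 0.15). In these 4 genes the lowest member library was above the highest library of the other CD4 T cells. They were named for their large changes, a choice that favors this.

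The TNF receptor family followed. Tnfrsf9 (4-1BB) was at 1653, 1685 and 1110 CPM in members against 526, 491 and 348 CPM (log2 fold change 1.56 ± 0.11). Tnfrsf1b (TNFR2), the TNF receptor through which Tregs expand, was at 179, 179 and 173 CPM against 34.6, 62.3 and 54.8 CPM (1.66 ± 0.21). Tnfrsf4 (OX40; 1.18 ± 0.12), Icos (1.11 ± 0.13), Cd27 (1.5 ± 0.17) and Tnfrsf18 (GITR; 0.78 ± 0.12) were also higher. Pdcd1 (PD-1) was the receptor that was lower, at 52.2, 80.5 and 75.9 CPM against 136, 131 and 227 CPM (-1.36 ± 0.21). Il1rl1 (ST2), the receptor for the alarmin interleukin-33, was higher at 157, 95.6 and 178 CPM against 21.8, 37.1 and 51.6 CPM (1.78 ± 0.25). Lag3 did not pass the test, with 248, 219 and 128 CPM against 85.5, 80.1 and 146 CPM, but passed without the p38KO library (1.34, edgeR adjusted p = 0.00351). Tigit and Gpr83 had too few counts to be tested. Ccr8, a chemokine receptor often used to mark tumor Tregs, was near its floor, with 2, 1 and 1 UMIs in the members of the 3 libraries.

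**Figure D3:**
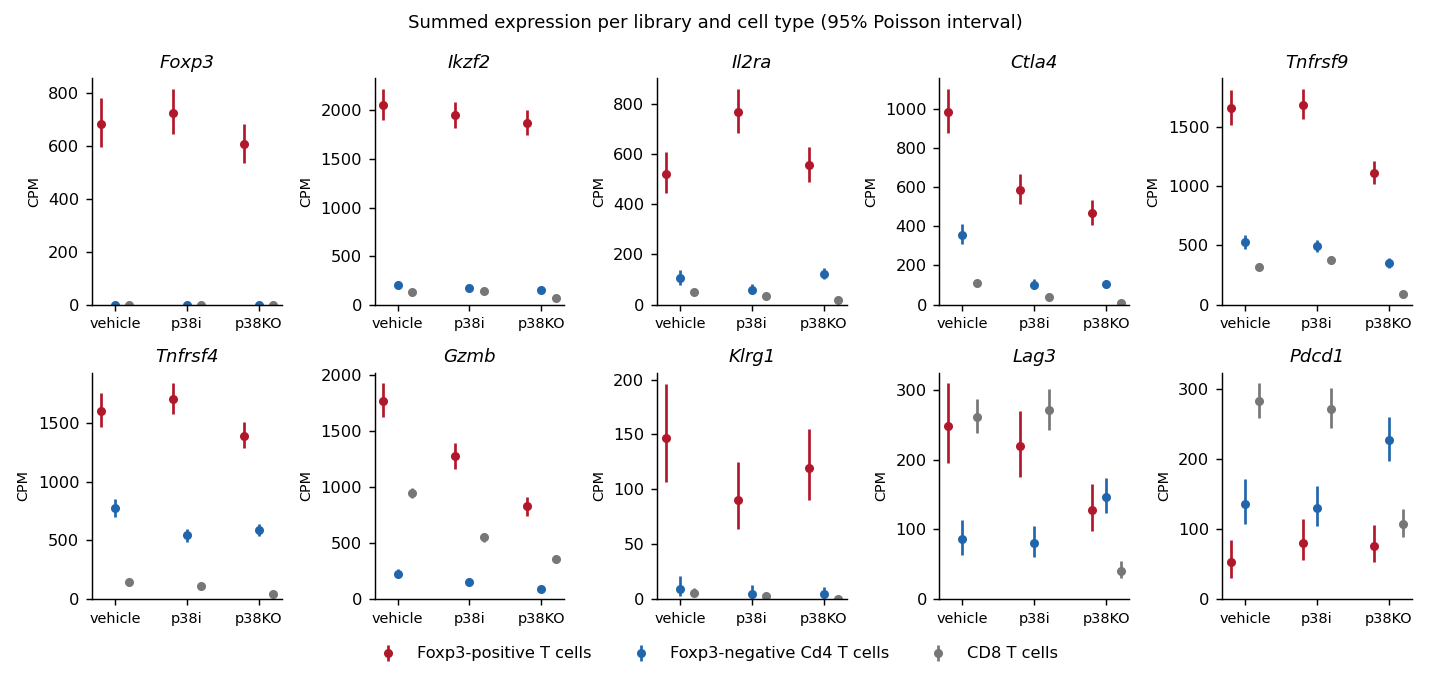
Summed expression (CPM, y axis) of 10 genes in Foxp3-positive T cells, Foxp3-negative CD4 T cells and CD8 T cells of each library (x axis); bars are 95% Poisson intervals. Members lie above the other CD4 T cells in each library for Ikzf2, Il2ra, Ctla4, Tnfrsf9, Tnfrsf4, Gzmb and Klrg1 and below them for Pdcd1, while Lag3 changes order between libraries. Foxp3 is 0 in both comparison groups by the rule.

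Among effector molecules, Gzmb (chr14:56258838-56262260), the cytotoxic protease granzyme B, was at 1771, 1273 and 826 CPM in members against 224, 156 and 93.5 CPM (log2 fold change 2.91 ± 0.13, edgeR adjusted p = 2.12e-14). It was found in 33 of 61, 65 of 107 and 37 of 89 members. Of 14 effector genes tested, Gzmb and the actin-capping gene Capg (0.67 ± 0.12) were higher, beside 4.02% of all genes. The galectin gene Lgals3 was lower (-0.77 ± 0.15), beside 4.78% of all genes, and 11 did not pass. The Lgals3 call was lost without the p38KO library (-0.76, edgeR adjusted p = 0.0547) and without the library as a block (edgeR adjusted p = 0.421). Without the Veh library 4 effector genes were lower, and without the p38i library 2. Il10, the suppressive cytokine, was too sparse to be tested, with 21, 7 and 4 UMIs in 7, 6 and 2 members. In the Veh library 11 of those 21 UMIs came from 1 cell. Penk, the enkephalin precursor, was at 124, 279 and 256 CPM in members against 213, 159 and 538 CPM and did not pass. In the Veh library 27 of its 38 UMIs came from 1 cell.

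Transcription factors divided. Of 21 tested, 6 were higher and 4 lower, beside 4.02% and 4.78% of all genes, and 11 did not pass. Besides Ikzf2, its relatives Ikzf3 (Aiolos; 2.03 ± 0.29) and Ikzf4 (Eos, a Foxp3 cofactor; 0.99 ± 0.26) were higher, Ikzf4 not without the p38i library (0.53, edgeR adjusted p = 0.159), as were Prdm1 (Blimp-1; 1.97 ± 0.27), which marks effector Tregs, Maf (c-Maf; 1.11 ± 0.12), and Nfil3 (1.04 ± 0.27), which did not pass without the p38KO library (0.70, edgeR adjusted p = 0.327). Id2, an inhibitor of E proteins, was lower at 512, 332 and 562 CPM against 986, 1047 and 1581 CPM (-1.51 ± 0.13). Bach2, which keeps T cells quiescent, was lower at 9.78, 20.1 and 4.34 CPM against 36.4, 23.7 and 33.3 CPM (-1.59 ± 0.46), a call that was lost without the p38KO library (-1.05, edgeR adjusted p = 0.399). Ikzf1 (-1 ± 0.18) and Runx3 (-0.75 ± 0.15) were the other factors that were lower.

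Naive and memory genes were mostly lower, in 9 of 15 tested, with 1 higher, beside 4.78% and 4.02% of all genes. Their median log2 fold change was -0.64. Tcf7 (TCF-1), a factor of naive and stem-like T cells, was at 9.78, 30.2 and 8.67 CPM against 109, 138 and 66.7 CPM (-2.81 ± 0.30). Ccr7, the lymph node homing receptor, was at 13.0, 27.7 and 4.34 CPM against 127, 83.0 and 55.9 CPM (-2.67 ± 0.34). Of 14 trafficking receptors tested, 5 were higher and 4 lower, beside 4.02% and 4.78% of all genes. Itgb7 (0.95 ± 0.15) and Ccr4 (0.91 ± 0.27) were among the higher, which numbered 3 without the p38KO library, where Ccr4 did not pass (0.62, edgeR adjusted p = 0.463), nor did it without the Veh library (0.77, edgeR adjusted p = 0.141). The naive and memory genes that were lower numbered 6 without the Veh or the p38KO library and 7 without the p38i library. Cxcr6, a receptor of tissue-resident T cells, was lower at 65.2, 88.0 and 71.5 CPM against 415, 412 and 871 CPM (-3.01 ± 0.23). Bcl2, a survival gene that was 1 of 20 genes in the NF-κB and survival list, was lower at 97.8, 60.4 and 102 CPM against 578, 415 and 481 CPM (-2.64 ± 0.16). In that list 1 gene was lower and 17 did not pass, with 4.78% of all genes lower. The 2 that were higher, beside 4.02% of all genes, were the adaptor gene Traf3 (1.16 ± 0.34) and the inhibitor of apoptosis gene Birc2 (0.65 ± 0.17). Neither of the 2 passed without the p38KO library (edgeR adjusted p = 0.213 and 0.0660) or without the p38i library (edgeR adjusted p = 0.306 and 0.0884), and Birc2 did not pass without the Veh library (edgeR adjusted p = 0.0750).

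Helper cytokines and ligands were the group with the largest negative median, -1.72. Of 12 tested, 8 were lower and 1 higher, beside 4.78% and 4.02% of all genes. Ccl1, a chemokine ligand of CCR8, had no UMI in any member and 186, 296 and 1261 UMIs (338, 439 and 1356 CPM) in Foxp3-negative CD4 T cells. With a floor of 3 counts over all members, it was at least 314-fold lower in members, and at least 92.4-fold lower without the p38KO library, which held most of the UMIs. Ccl1 was found in 5 of 113, 8 of 147 and 23 of 172 Foxp3-negative CD4 T cells. Csf2 (GM-CSF) was at 3.26, 0 and 0 CPM against 180, 185 and 295 CPM. Tnfsf8 (CD30 ligand) was at 6.52, 0 and 19.5 CPM against 333, 174 and 280 CPM (-4.91 ± 0.37, edgeR adjusted p = 3.99e-06). Cd40lg (CD40 ligand), the helper signal to antigen-presenting cells, was at 19.6, 5.03 and 10.8 CPM against 138, 97.9 and 112 CPM (-3.47 ± 0.31, edgeR adjusted p = 2.26e-08). Ltb (lymphotoxin β) was higher (0.45 ± 0.12), but not without the p38i library (0.29, edgeR adjusted p = 0.182), and without the p38KO library 3 genes of this group were higher and 6 lower. For Ccl1 the call was lost when the library was not a block (edgeR adjusted p = 0.211).

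Other genes with the largest differences included Ly6a (Sca-1), at 988, 1180 and 865 CPM in members against 81.8, 108 and 144 CPM (3.03 ± 0.18, edgeR adjusted p = 1.21e-07). The 10 largest changes per direction were taken among genes with at least 50 CPM in the 3 libraries of the higher cell type. Arl5a (2.34 ± 0.17) and the laminin gene Lamc1 (2.34 ± 0.29) were also among them. Ighm, the μ heavy chain of B cells, was at 170, 136 and 212 CPM against 16.4, 41.5 and 26.9 CPM (2.46 ± 0.27, edgeR adjusted p = 9.59e-06). It was found in 31, 35 and 40 members with at most 8 UMIs in a cell, while Cd79a and Ms4a1 were at 0 and Cd79b had 4 UMIs in the members of each library. On the lower side, Klrd1 (CD94) was at 32.6, 7.55 and 8.67 CPM against 176, 242 and 463 CPM (-4.44 ± 0.62, edgeR adjusted p = 0.0355, and -4.25 with adjusted p = 0.114 without the p38i library), and its NKG2A partner Klrc1 was also lower (-4.26 ± 0.35). Gpm6b, Krt83, Tbc1d4 and Lgals7 completed the 10 largest negative changes within this limit, at -3.96, -3.34, -3.17 and -3.13.

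**Figure D4:**
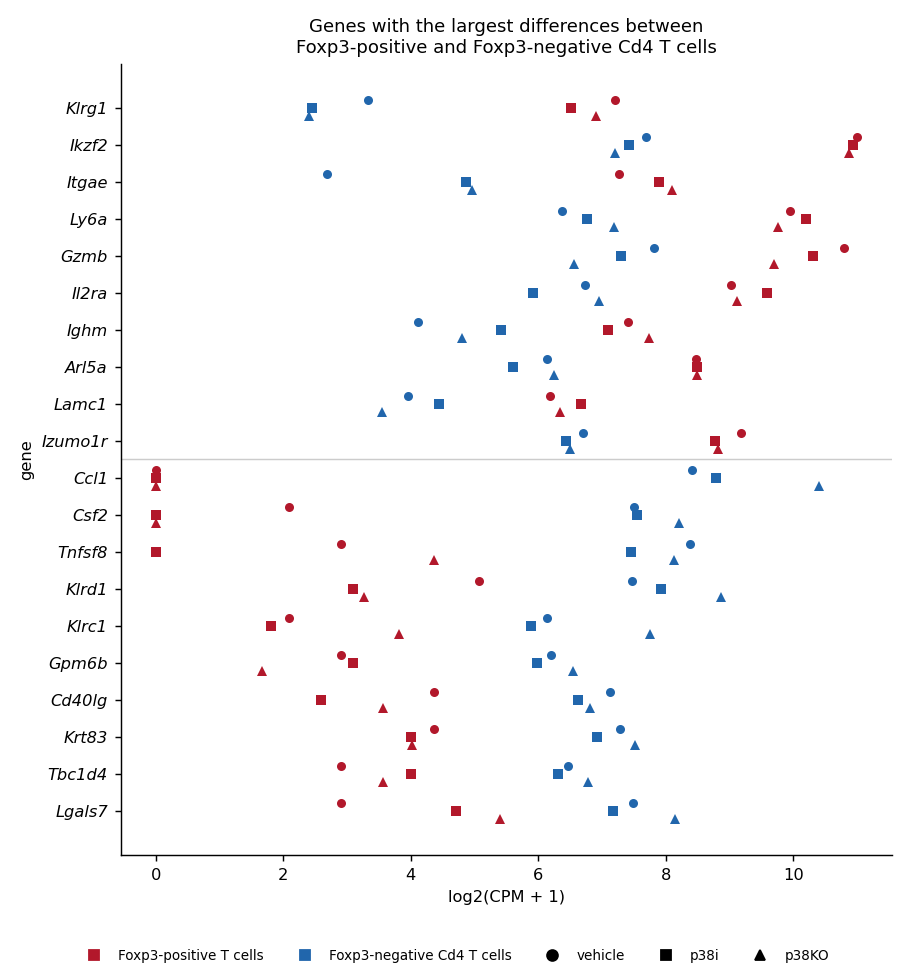
The 10 genes with the largest positive and the 10 with the largest negative log2 fold change between Foxp3-positive and Foxp3-negative CD4 T cells (y axis), by log2(CPM + 1) in each library (x axis; symbols mark libraries, colors mark cell types). The 20 genes were taken among those with at least 50 CPM in the 3 libraries of the higher cell type. The member libraries and the comparison libraries do not overlap for any of the 20 genes. The genes were chosen for large changes in the same direction in all libraries, which favors this. Ccl1 lies at 0 in all member libraries.

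Of 20 interferon genes tested, 5 were higher and 2 lower (median log2 fold change 0.32), beside 4.02% and 4.78% of all genes. Ifi27l2a was at 3219, 2440 and 3107 CPM in members against 1524, 1358 and 1681 CPM (0.80 ± 0.09), the guanylate-binding gene Gbp7 was also higher (0.96 ± 0.15), and Ifitm2 was lower (-1.73 ± 0.15). Without the p38KO library 2 interferon genes were higher, and the call of the signaling factor Stat2 (edgeR adjusted p = 0.694) was among those lost. The lower ones numbered 4 without the Veh library and 1 without the p38i library. Of 20 immediate-early and stress genes, 5 were higher and 2 lower, beside 4.02% and 4.78% of all genes. Among the higher were the ERK phosphatase gene Dusp4 (1.33 ± 0.31) and the mRNA decay gene Zfp36l1 (1 ± 0.14, edgeR adjusted p = 0.0518 without the library as a block). Without the p38KO library 3 were higher and none lower, and the calls of Jun (0.36, edgeR adjusted p = 0.468), Dusp5 (0.67, edgeR adjusted p = 0.182), Zfp36 (1.15, edgeR adjusted p = 0.245) and Dusp2 (-0.44, edgeR adjusted p = 0.430) were lost. Without the Veh library 3 were higher and 1 lower, and the calls of Jun, Zfp36 and Dusp2 were lost as well. T cell receptor activation genes were called in 2 of 13 tested, near the 8.80% of all genes, with Tox (0.85 ± 0.23) higher and Nfatc1 (-0.79 ± 0.24) lower. Neither passed without the p38KO library (edgeR adjusted p = 0.0583 and 0.368), nor did Tox without the p38i library (edgeR adjusted p = 0.152) or Nfatc1 without the Veh library (edgeR adjusted p = 0.0582). Among 16 metabolic genes the fatty acid binding gene Fabp5 (1.21 ± 0.20) and the glycolytic gene Pkm (0.41 ± 0.11) were higher and none was lower, again near the 8.80% of all genes. Without the p38KO library neither passed, at 1.23 (edgeR adjusted p = 0.0517) and 0.37 (edgeR adjusted p = 0.278), and Pkm did not pass without the Veh library (0.38, edgeR adjusted p = 0.0543). Of the p38 pathway, 8 of 16 genes had enough counts, and none passed, beside 8.80% of all genes. Mapk14, the target of the inhibitor and of the knockout in the tumor cells, was at 29.3, 27.7 and 26.0 CPM in members against 38.2, 35.6 and 37.6 CPM. The members come from the host, so its level does not check the knockout.

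Against the 655 CD8 T cells of the same libraries (255, 234 and 166 cells), 679 genes were higher (9.35% of 7261 tested) and 658 lower (9.06%; 18.4% in either direction) in members. The member libraries are the ones used above, so the 2 comparisons are not independent. Without the Veh library the counts were 389 and 390, and without the p38i library 394 and 379. The members again had more Klrg1, at 147, 90.5 and 119 CPM against 5.19, 2.33 and 0 CPM (log2 fold change 5.17 ± 0.37), and more Il1rl1 (4.67 ± 0.40), Maf (4.26 ± 0.21), Ccr4 (4.20 ± 0.38), Il2ra (3.92 ± 0.31) and Tnfrsf25, the death receptor 3 (3.36 ± 0.40). Ctla4 was at 985, 586 and 466 CPM against 108, 38.8 and 10.2 CPM, and did not pass with all libraries (3.66, edgeR adjusted p = 0.0720). This held under only 6 of 13 alternatives. Ctla4 passed without the Veh library (4.25) and without the p38KO library (3.26). It also passed with DESeq2, after thinning, with a Cd4 UMI required, without cells carrying transcripts of other lineages and without the deepest T cells. Among the 10 largest negative changes were the NK receptor genes Klrc2, Klrc1, Klrd1, Cd160 and Klrk1, with log2 fold changes of -7.18, -6.20, -5.98, -5.55 and -4.65. Xcl1, a chemokine of cytotoxic cells, had no UMI in members against 241, 315 and 114 CPM, at least 89.7-fold lower with a floor of 3 counts over all members and at least 49.2-fold without the p38i library. Prf1 (perforin) was at 19.6, 2.52 and 6.50 CPM against 353, 388 and 68.7 CPM (-5.03 ± 0.35). Without the library as a block the calls of Xcl1 and Prf1 were lost (edgeR adjusted p = 0.0979 and 0.0776). Gzmb, by contrast, was higher in members than in the CD8 T cells of the same library, at 1771 against 947, 1273 against 550 and 826 against 359 CPM (0.89 ± 0.10, edgeR adjusted p = 3.73e-10).

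Of the NF-κB and survival list, 14 of 20 genes were higher in members than in CD8 T cells and 1 was lower. Over all genes tested in this comparison, 9.35% were higher and 9.06% lower. Against CD4 T cells, 2 of the same 20 were higher and 1 lower, beside 4.02% and 4.78% of all genes. The difference between the 2 comparisons was not tested. The 14 fell to 7 without the Veh or the p38i library and to 8 without the p38KO library. Of 16 metabolic genes 8 were higher and none lower, beside 9.35% and 9.06% of all genes. The higher ones fell to 4 without the Veh library and to 3 without the p38KO library. In the latter the glycolytic genes Aldoa (edgeR adjusted p = 0.208) and Hk2 (edgeR adjusted p = 0.309) were among the calls lost. The call of the glucose transporter gene Slc2a1 (0.54 ± 0.19) was lost with any 1 library left out (edgeR adjusted p = 0.204, 0.0897 and 0.228 without the Veh, p38i and p38KO library). Of 15 T cell receptor activation genes 10 were higher and 2 lower, beside the same 9.35% and 9.06% of all genes. Without the Veh or the p38i library 7 were higher and none lower. Of 9 p38 pathway genes 3 were higher and none lower, beside 9.35% and 9.06% of all genes. The 3 fell to 2 without the Veh library and to 1 without the p38i or the p38KO library.

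To ask how p38 blockade changed the Tregs, the levels within members were set side by side between libraries. With 1 library per group there is no test, and ratios are given with 95% exact conditional binomial intervals that cover counting error only. A gene with at least 30 counts over both libraries was called past the fold at an absolute log2 ratio of 1 or more. In p38i against Veh, 106 of 3711 genes were higher (2.86%) and 86 lower (2.32%), 5.17% in either direction. In p38KO against Veh, 153 of 3990 were higher (3.83%) and 81 lower (2.03%), 5.86% in all. In p38KO against p38i, 128 of 4411 were higher (2.90%) and 71 lower (1.61%), 4.51% in all. Without the cells that carried transcripts of other lineages, 58 and 39 of 2880 genes were past the fold in p38i against Veh (2.01% and 1.35%, 3.37% in all). In p38KO against Veh these were 72 and 38 of 2851 (2.53% and 1.33%, 3.86% in all), and in p38KO against p38i 67 and 60 of 3466 (1.93% and 1.73%, 3.66% in all).

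The largest of these ratios rested on few cells. Spp1 (osteopontin) was at 26.1 CPM in Veh and 704 CPM in p38i members, where 275 of its 280 UMIs were in 1 cell, and at 4.87 and 9.22 CPM once cells with transcripts of other lineages were left out. Apoe was at 52.2 CPM in Veh and 3365 CPM in p38KO members, with 926 of 1552 UMIs in 1 cell, and at 24.4 and 111 CPM without those cells. C1qa, 1 of the 8 transcripts that chose those cells, fell from 891 to 19.1 CPM in the p38KO members without them. Its fall follows from that choice. Spp1, Apoe and C1qa are macrophage genes. The granulocyte genes Stfa2 and Cxcl3 stood out in Veh members (143 and 316 CPM) in the same way, with 31 of 44 and 95 of 97 UMIs in 1 cell, and were at 0 and 4.87 CPM without those cells.

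**Figure D5:**
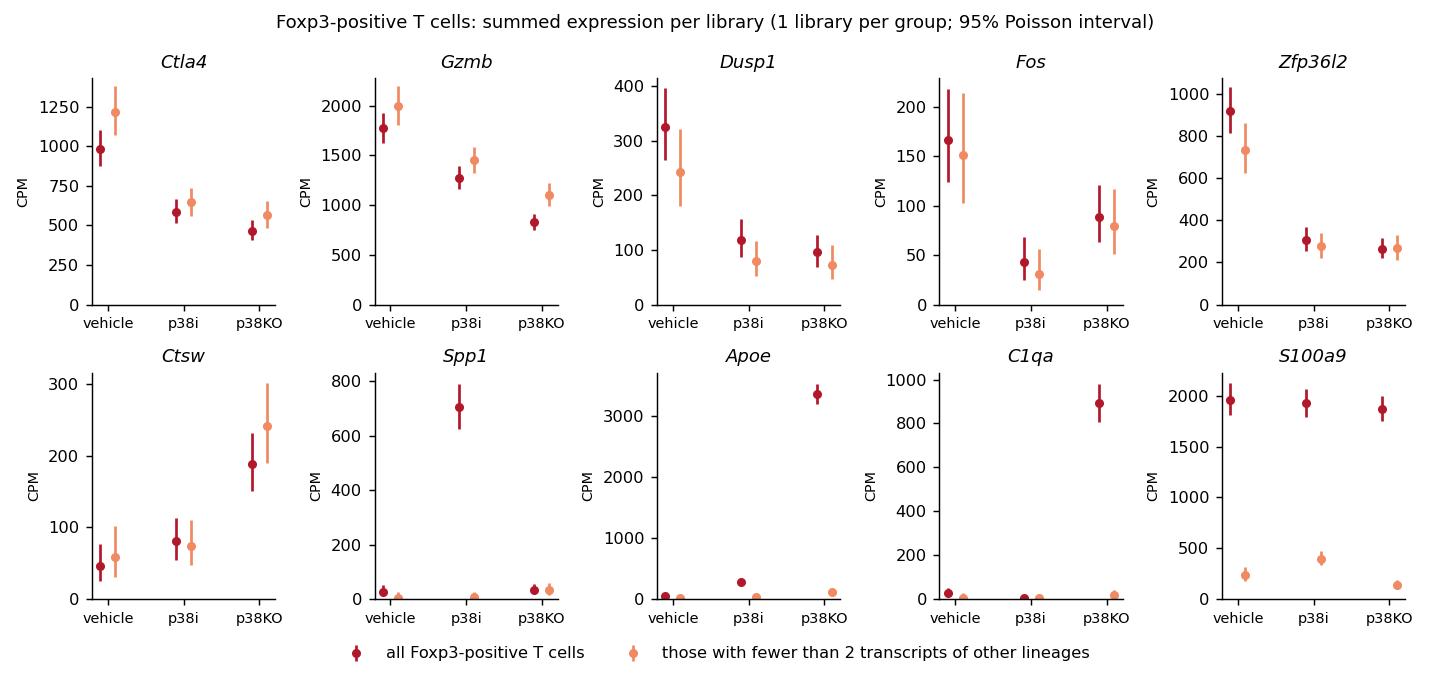
Summed expression (CPM, y axis) of 10 genes in Foxp3-positive T cells by library (x axis), for all members and for members with fewer than 2 transcripts of other lineages; bars are 95% Poisson intervals. Ctla4, Gzmb, Dusp1, Fos and Zfp36l2 are highest in the Veh library and Ctsw in the p38KO library in both sets. Spp1 in p38i, Apoe and C1qa in p38KO and S100a9 in all libraries are far lower without cells carrying transcripts of other lineages. C1qa is among the transcripts that chose those cells.

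The log2 ratio of Ikzf2 to Veh was -0.08 for the p38i members (interval -0.23 to 0.08) and -0.13 for the p38KO members (interval -0.28 to 0.02), both not distinguishable from 0 at this depth. Of the 19 Treg receptor genes with enough counts, none was past the fold in p38i and 1, Ctla4, was in p38KO, counts no higher than the 5.17% and 5.86% of all genes. Il1rl1 was past it in p38i once cells carrying transcripts of other lineages were left out (224 CPM in Veh and 105 CPM in p38i, -1.10, -1.78 to -0.43). Ctla4 was 985 CPM in Veh, 586 in p38i and 466 in p38KO members, a log2 ratio to Veh of -0.75 in p38i (interval -1.0 to -0.50) and of -1.08 in p38KO (interval -1.34 to -0.82). Without cells carrying transcripts of other lineages it was 1218, 646 and 565 CPM, with ratios of -0.92 and -1.11. It was found in 56 of 61, 77 of 107 and 60 of 89 members, and after thinning in 62.2%, 57.0% and 46.7% of them, with overlapping intervals. The Foxp3-negative CD4 T cells had 358, 102 and 103 CPM, ratios of -1.81 and -1.80. Il2ra differed by 0.56 for p38i (interval 0.28 to 0.85) and by 0.09 for p38KO (interval -0.20 to 0.39), and by 0.29 (-0.01 to 0.60) in p38i without those cells. For Tnfrsf9 the p38i ratio was 0.03 (interval -0.14 to 0.20) and the p38KO ratio -0.57 (interval -0.75 to -0.39), or 0.11 and -0.45 without those cells.

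Gzmb was highest in Veh, then p38i, then p38KO members. Its log2 ratio to Veh was -0.48 in p38i (interval -0.65 to -0.30) and -1.10 in p38KO (interval -1.29 to -0.91), and of -0.46 and -0.86 without cells carrying transcripts of other lineages. The 3 intervals of its level did not overlap in either set of cells. It was found in 54.1%, 60.7% and 41.6% of members, and after thinning to 1500 UMIs in 51.1%, 44.3% and 33.3%, which followed the order of the levels with overlapping intervals.

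Immediate-early and stress genes were the list with the most genes past the fold: 6 of 18 with enough counts were lower in p38i than in Veh and 4 of 18 in p38KO, beside 2.32% and 2.03% of all genes, with none higher (7 of 16 and 3 of 16 without cells carrying transcripts of other lineages). Dusp1, a phosphatase that switches off p38 and JNK, was at 326, 118 and 95.4 CPM in Veh, p38i and p38KO members, ratios of -1.46 (interval -2.0 to -0.95) and -1.77 (interval -2.32 to -1.25), and of -1.61 and -1.74 without those cells. Zfp36l2, which binds AU-rich elements and destabilizes mRNAs, was at 920, 307 and 265 CPM (-1.58 and -1.80, and -1.41 and -1.46 without those cells). Fos was at 166, 42.8 and 88.9 CPM (-1.96 and -0.90, and -2.30 and -0.93 without those cells). Zfp36 (tristetraprolin), an mRNA decay factor whose activity p38 and MK2 control, was at 218, 90.5 and 195 CPM, lower in p38i (-1.27, -1.90 to -0.67) and not distinguishable in p38KO (-0.16, -0.64 to 0.32). Without those cells its ratios were -1.97 and -0.46. Over all Foxp3-negative CD4 T cells they were 0.44 (-0.28 to 1.19) and 0.95 (0.31 to 1.63), the first not distinguishable from 0. Nr4a1, an immediate-early target of T cell receptor signaling, was at 104, 47.8 and 47.7 CPM (-1.13 in both, and -1.66 and -1.23 without those cells), from 9 to 11 cells per library. In Foxp3-negative CD4 T cells, Zfp36l2 had ratios of -1.24 and -1.85, Dusp1 of -1.39 and -0.05, and Fos of -0.37 and -0.65. Differences in handling between libraries cannot be told apart from the groups.

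Of the 16 p38 pathway genes, 5 had enough counts. Mapkapk2 (MK2) was at 84.8, 176 and 163 CPM, with ratios to Veh of 1.05 for p38i (interval 0.39 to 1.76) and 0.94 for p38KO (interval 0.28 to 1.64), and of 0.89 and 0.94 without cells carrying transcripts of other lineages. Mapkapk3 (MK3) was at 48.9, 101 and 108 CPM, from 15, 40 and 50 UMIs (1.04, 0.15 to 2.0, and 1.15, 0.29 to 2.09, and 1.17 and 1.42 without those cells). Both were past the fold in p38i, and Mapkapk3 alone in p38KO and, in both libraries, without those cells. Of all genes, 2.86% were higher in p38i and 3.83% in p38KO, and 2.01% and 2.53% without those cells. Mknk2, another kinase below p38, was not (0.10 in p38i and -0.0039 in p38KO), nor were Map2k3 and Creb1, and Mknk1, Mapkapk5, Rps6ka4 and Rps6ka5 had fewer counts than the minimum. The lower bound for Mapkapk3 in p38i was near 0. None of these ratios was tested.

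Other members of the fixed lists past the fold were few. Cxcr4, a receptor for homing to CXCL12, was at 192, 78.0 and 49.9 CPM (-1.30 and -1.95, and -1.25 and -1.39 without cells carrying transcripts of other lineages). Ikzf4 (Eos) was at 88.0, 216 and 189 CPM (1.30, 0.66 to 1.98, and 1.10, 0.46 to 1.78, and 1.02 and 0.82 without those cells). Penk, at 124, 279 and 256 CPM, was also past the fold in both (1.17 and 1.05) but not without those cells (0.81 and 0.88), and was found in 3, 18 and 11 members. Without cells carrying transcripts of other lineages, and by the rule for the largest ratios, applied to this set after its values were seen, the p38KO members had more Cd74, the invariant chain of MHC class II (19.5 CPM in Veh and 102 CPM in p38KO, from 4 and 32 UMIs, 2.38, 0.89 to 4.34). Over all members Cd74 was at 1784 and 1843 CPM (0.05, -0.11 to 0.20). Without those cells the p38KO members also had more of the lipid carrier gene Apoe (24.4 and 111 CPM, 2.19, 0.83 to 3.90). They had more Ctsw, the cathepsin W gene of cytotoxic lymphocytes (58.5 CPM in Veh and 241 CPM in p38KO, 2.05, 1.16 to 3.06), and more Csf1, the macrophage growth factor (34.1 and 127 CPM, 1.90, 0.72 to 3.30). The 8 macrophage and monocyte markers, which include Apoe, were also higher in this set, at 107 CPM in Veh and 213 CPM in p38KO. Their part in these ratios was not tested. Without those cells the p38i members had higher levels of the myeloid genes Wfdc17 (4.87 and 92.2 CPM, from 1 and 30 UMIs, 4.24, 1.65 to 9.59) and Il1b (48.7 and 175 CPM, 1.85, 0.86 to 2.98). Over all members the ratios were 0.06 for Wfdc17 (300.02 and 312 CPM, -0.34 to 0.46) and 0.72 for Il1b (342 and 563 CPM, 0.38 to 1.07). The 8 granulocyte markers were also higher in the p38i library in the smaller set, at 385 CPM in Veh and 882 CPM in p38i, and their part in these ratios was not tested. The p38i members of that set had more Dpp3 (19.5 and 92.2 CPM, 2.24, 0.74 to 4.21) and Lpcat1 (19.5 and 79.9 CPM, 2.04, 0.51 to 4.01) and less Hist1h1c (136 and 21.5 CPM, -2.66, -4.10 to -1.44). The ratios in Foxp3-negative CD4 T cells are over all of them, with cells carrying transcripts of other lineages kept. In p38KO they were 1.62 for Ctsw (1.22 to 2.04), 2.35 for Csf1 (1.6 to 3.2), 4.68 for Apoe (4.10 to 5.33) and 0.36 for Cd74 (0.17 to 0.54). C1qa was at 27.3 CPM in Veh and 388 CPM in p38KO there. In the p38i library the ratios there were 2.10 for Wfdc17 (1.69 to 2.54), 2.12 for Il1b (1.61 to 2.66), 0.16 for Dpp3 (-0.83 to 1.19), -0.49 for Lpcat1 (-1.63 to 0.64) and -1.97 for Hist1h1c (-2.92 to -1.11). Lyz2 was at 45.5 CPM in Veh and 630 CPM in p38i there, and S100a8 at 640 and 2328 CPM. The part of these transcripts in the ratios was not tested.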

How the data were processed

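Per the labels and file headers, the authors sequenced 3′ single-cell libraries (10x Genomics), and deposited per library a matrix of UMI counts per gene and barcode made with Cell Ranger 6.0.0 on mm10; their processing notes also name R 4.2.1 and Seurat 5. These counts were used as deposited. The 4588, 6343 and 5212 deposited barcodes held 21675352, 25996832 and 25997636 UMIs. The cell filter asked for 1500 or more UMIs, 300 or more genes and a mitochondrial share of up to 20%, and 3820, 4793 and 3859 cells passed. No doublet caller was run. Instead, cells with 2 or more of 8 transcripts of other lineages were left out as an alternative.

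The members, gene lists and tests were chosen with earlier results of these data known. Counts were summed per library and cell type. Treg sums were tested against Foxp3-negative CD4 and CD8 T cell sums with edgeR 4.0.16 (filterByExpr, TMM, robust quasi-likelihood fit, library as a block, Benjamini-Hochberg), leaving out the genes of the rule. SE is the absolute log2 fold change over the root of F. On simulated counts the fit against CD4 T cells recovered 52.0% of genes changed by a log2 fold of 1 and 100.0% of those changed by 2, and called 0.103% of unchanged genes. The simulated sums had the same dispersion for every gene and differed between libraries in depth only, and the changed genes were well counted. These rates therefore do not carry over to sparse genes or to spread between the groups. The spread between the real sums reflects 3 libraries of different groups, not mice. The block pairs sums of the same library, so the numbers of the labels were not needed for it. CPM intervals are exact Poisson, shares exact (Clopper-Pearson) and ratios conditional binomial, with 0.5 in place of a count of 0, all at 95%. UMIs of the same cell are not independent, so these cover counting error only.

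The genes named were the Treg markers, those with the largest change among the called members of 12 lists, the 10 per direction with the largest change in each fit (same direction in all 3 libraries, at least 50 CPM in the 3 libraries of the higher cell type) and the 6 per direction with the largest ratio (at least 50 CPM in 1 library). Genes of the rule, mitochondrial, ribosomal and unnamed genes were left out of the last 2. Other genes named as sparse or not called were chosen after their values were seen. Some genes of these lists are not reported here by name. Positions are those of GENCODE M21 on GRCm38. Alternatives were DESeq2 1.42.0, no filter on low counts, no library block, each library left out, stricter member rules, thinning, other cell filters and, for ratios, other scalings, minimum counts and folds.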

Additional observations from a re-analysis of the deposited data

Results flagged for a closer look

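In each of the genes below, all from the fixed lists, the p38i or p38KO library differed from Veh by 1.5 times or more in one direction in members and in the other direction in Foxp3-negative CD4 T cells, with counting intervals that left out 0 in both. The difference itself was not tested, since there is 1 library per group.

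S100a6, a calcium-binding protein gene of activated T cells, had a log2 ratio of p38i to Veh of -0.70 in members (1856 CPM in Veh and 1142 CPM in p38i) and 0.96 in Foxp3-negative CD4 T cells (898 and 1745 CPM). Without cells carrying transcripts of other lineages the ratios were -0.94 and 0.47. S100a11 had ratios of -0.69 and 0.65, and of -0.47 and 0.26 without those cells. Ccr2, the receptor for CCL2, had ratios of -0.78 and 0.71, and of -0.70 and 0.59 without those cells.

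Lag3, an inhibitory receptor for MHC class II, had a log2 ratio of p38KO to Veh of -0.95 in members and 0.77 in Foxp3-negative CD4 T cells. Without cells carrying transcripts of other lineages the ratio in members was -0.11 (-0.74 to 0.53), with 11 of the 38 remaining Veh UMIs in 1 cell.

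Ccl3 and Ccl4, chemokines made by myeloid cells and activated T cells, had ratios of p38KO to Veh of -3.50 and -1.70 in members and of 3.87 and 5.30 in Foxp3-negative CD4 T cells. Without cells carrying transcripts of other lineages, Ccl3 was down to 2 and 1 UMIs in members of the Veh and p38KO libraries. In Foxp3-negative CD4 T cells the ratios were then 0.05 (-3.08 to 3.63) for Ccl3 and 0.79 (-1.01 to 2.91) for Ccl4, and Ccl4 in members was -1.35 (-3.10 to 0.25), so no opposite directions were detectable for either. Ifitm1, which granulocytes also express, had ratios of -1.30 in members and 0.84 in Foxp3-negative CD4 T cells, and the ratio in members turned to 1.46 (0.39 to 2.69) without those cells.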

How the results depend on the processing

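With 1 library per group, nothing between libraries could be tested. With 61 to 107 members per library, genes under 30 counts over both libraries were not counted as past the fold, unless another minimum is stated. Some ratios among the flagged results rest on fewer counts and are given with their intervals. Of the 84 genes of the fixed lists and the largest changes that were called against CD4 T cells, 42 kept their call under all alternatives in which they were tested, and of 132 against CD8 T cells 65 did. Against CD8 T cells the log2 fold change turned sign for Isg15, from 0.66 to -0.05 after thinning, and for Ifitm3, from 0.52 to -1.16 after thinning, -0.90 without cells carrying transcripts of other lineages and -0.03 with a Cd4 UMI. That of no other of these genes turned sign.

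Genes higher and lower in members than in CD4 T cells numbered 66 and 116 with DESeq2, 97 and 156 with members that also had a Cd4 UMI, and 113 and 147 after thinning. Leaving out each library gave 99 to 314 higher and 144 to 313 lower genes, the fewest without the p38KO library. Without the library as a replicate block, 182 and 212 genes passed, and the calls of Ctla4, Ccl1, Il13 and Klrc1 were among those lost, as were those of Xcl1 and Prf1 against CD8 T cells. Against CD8 T cells the counts were 262 and 254 with DESeq2, 390 and 350 with a Cd4 UMI required, 280 and 279 after thinning, and 389 to 461 and 379 to 439 with each library left out, with the lowest counts without the Veh and the p38i library.

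The share of the CD4 compartment in Veh, p38i and p38KO was 24.2%, 18.3% and 18.5% with a Cd4 UMI required. It was 34.7% and 27.4% in p38i and p38KO with at least 2 Foxp3 UMIs, and 40.3% in p38KO after thinning. The p38i share was thus the highest by the rule and the lowest once Cd4 was required, which 59.0%, 30.8% and 43.8% of members met. The share of T cells was 8.48%, 11.9% and 11.8% with at least 2 Foxp3 UMIs, 6.94%, 5.05% and 7.08% with a Cd4 UMI and 9.0%, 12.9% and 11.5% after thinning. The share of all kept cells was 1.15%, 1.63% and 1.68%, then 0.942%, 0.689% and 1.01%, and 1.18%, 1.65% and 1.55% under these settings, and 1.77% and 1.75% in p38i and p38KO with no cell filter.

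Genes past the fold, higher and lower, were as follows. In p38i against Veh they were 33 and 23 after thinning, 58 and 39 without cells carrying transcripts of other lineages, 596 and 358 with at least 10 counts, 26 and 31 with at least 60, 543 and 432 at a log2 ratio of 0.5, and 40 higher with a Cd4 UMI. In p38KO against Veh they were 28 and 14, 72 and 38, 724 and 358, 39 and 32, and 672 and 417 under the first 5 of these settings. In p38KO against p38i they were 31 and 28 after thinning, 562 and 368 with at least 10 counts, 41 and 18 with at least 60, 613 and 465 at 0.5, 67 higher without cells carrying transcripts of other lineages and 116 lower by the mean CPM over cells. Wfdc17 turned from 0.06 to -0.24 with at least 2 Foxp3 UMIs (p38i to Veh), Cd74 from 0.05 to -0.62 with a Cd4 UMI and -0.56 without the deepest T cells (p38KO to Veh), and S100a8 from -0.08 to 0.22 with a Cd4 UMI (p38KO to p38i). The causes were not tested.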
